A study of Drosophila melanogaster with 6 samples.

Results

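A set of 150 probe sets on wing disc arrays read higher on the third array than on the first in both of the study's groups. The set was chosen from 14010 probe sets by 4 of the 6 arrays: the log2 signal of DN3 minus DN1 and of ACT3 minus ACT1 was taken, each probe set was scored by the smaller of the 2 differences, and the 150 highest scores were kept. Eligible were 12232 probe sets with 1 gene symbol, after 44 control probe sets and 211 probe sets chosen by symbol were left out. The 211 had symbols beginning Sgs, Lsp, Fbp, Hsp, Cpr, Lcp, Rp or mRp. Those prefixes cover glue, storage, heat shock, cuticle and ribosomal protein families, and any other gene whose symbol begins so. The members stand for 149 genes, since CG15353 had 2 probe sets in the set. Replicate numbers are names and carry no order, and the members are called the third-array-high probe sets here.

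The samples were wing imaginal discs of Drosophila melanogaster larvae in the third instar, raised at 25 °C, the epithelia that make the adult wing and notum. In 3 samples (DN1 to DN3) dominant negative Egfr, a signal-blocking form of the epidermal growth factor receptor, was expressed, and in the other 3 (ACT1 to ACT3) an activated form named TOP. Both groups carried the 71B-Gal4 driver, which switches a transgene on only where the driver is active. Strain, sex, age within the instar and the number of discs per sample are not given in the labels, no array without a transgene was used here, and the labels do not say that replicates came from separate animals. Values are log2 signals, 1 per probe set and array. The wing disc genes nub (9.52 to 10.77), ap (9.34 to 10.28) and vg (8.31 to 9.38) were read in all samples, in these ranges over the 6 arrays.

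The third larval instar is the last before the pupa, and pulses of the steroid hormone ecdysone time its events. As background, ecdysone binds the receptor EcR and switches on a cascade of transcription factors, while the salivary glands make glue proteins and the fat body makes storage proteins late in the instar. In the disc the same days see growth and patterning by Dpp, Hedgehog, Notch and Egfr signals. Discs taken at unlike points of the instar can therefore differ in their RNA, and the age of each sample within it is not recorded.

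The values that chose the members are a description and no test. The difference DN3 minus DN1 ran from 0.89 to 2.29 with a median of 1.16, and ACT3 minus ACT1 from 0.89 to 2.68 with a median of 1.11. Over all eligible probe sets the medians were -0.046 and -0.059. The differences correspond to 1.86-fold to 4.90-fold in DN and 1.86-fold to 6.42-fold in ACT. Both were at least 1, or 2-fold, for 93 members, which are the 93 (0.76%) of the eligible probe sets that reached it. Both were above 0 for 30.7% of the eligible probe sets, and over all eligible probe sets the 2 differences correlated at 0.75 (Pearson). In the opposite direction, 68 eligible probe sets had both differences at or beyond the size of the lowest member score. Just inside the limit were CycE, ken and nonA with scores of 0.89 each. Just outside were CG8468 at 0.89, CycB3 at 0.88 and cni at 0.88, so the limit separates no distinct set.

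**Figure D1:**
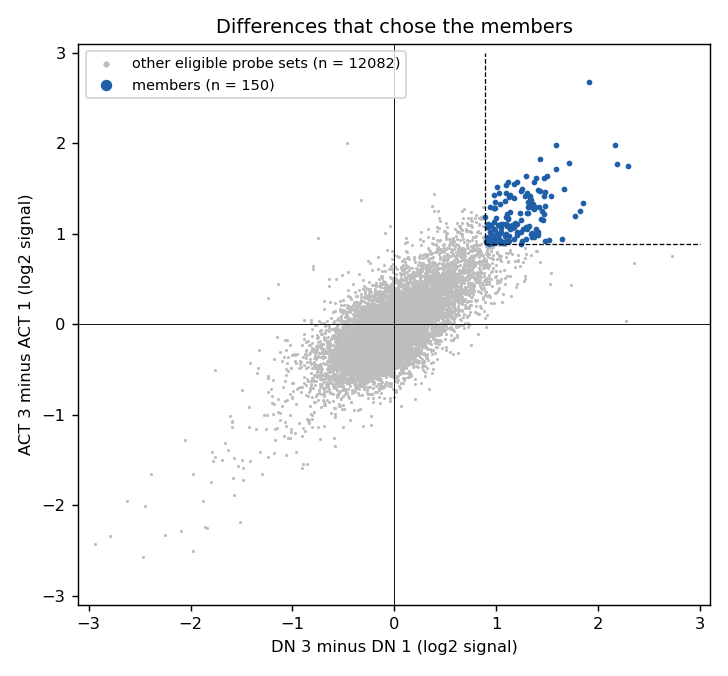
DN3 minus DN1 (x axis, log2 signal) against ACT3 minus ACT1 (y axis, log2 signal) for 12232 eligible probe sets, with the 150 members in blue and the lowest member score as dashed lines. The members are the upper right end of a continuous cloud.

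The highest score belonged to mirr, a homeodomain transcription factor gene of the Iroquois complex, which helps to pattern the body wall part of the disc. It read 6.92, 7.51 and 9.09 in DN1 to DN3 and 7.35, 7.69 and 9.32 in ACT1 to ACT3. The third arrays stood apart, and both second arrays lay nearer to the first. CG34166, of no role given here, read 9.41, 9.91 and 11.32 in DN1 to DN3 and 7.73, 9.40 and 10.41 in ACT1 to ACT3. Desat1, a fatty acid desaturase, read 8.20, 9.10 and 10.38 in DN1 to DN3 and 8.27, 7.89 and 10.05 in ACT1 to ACT3. For CG34166 both second arrays lay between the first and the third, while for Desat1 DN2 did so and ACT2 lay below ACT1. The leucine-rich repeat cell surface gene trn read 6.57, 7.76 and 8.86 in DN1 to DN3 and 7.06, 6.604 and 8.81 in ACT1 to ACT3. Hsc70-5, the mitochondrial member of the Hsp70 chaperones, read 7.49, 8.83 and 9.19 in DN1 to DN3 and 7.45, 7.93 and 9.23 in ACT1 to ACT3. In both, DN2 lay nearer to DN3 than ACT2 did to ACT3.

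The next members repeated that arrangement. The catalytic subunit gene of protein phosphatase 1, Pp1-87B, read 9.43, 10.35 and 10.93 in DN1 to DN3 and 9.70, 9.58 and 11.34 in ACT1 to ACT3. Ada3, an adaptor of histone acetyltransferase complexes, read 7.18, 8.14 and 8.66 in DN1 to DN3 and 7.47, 7.39 and 8.92 in ACT1 to ACT3. For dom, a chromatin remodelling ATPase gene, the values were 6.93, 7.71 and 8.40 in DN1 to DN3 and 6.61, 6.51 and 8.23 in ACT1 to ACT3. In all 3 genes DN2 lay nearer to DN3 than to DN1, and ACT2 lay below ACT1. The other high scores were those of ckn, CG15353, the proteoglycan gene wdp, the zinc finger gene bowl, the Dpp receptor gene sax, Kr-h1 and E(spl)mdelta-HLH, with the smaller difference between 1.41 and 1.59. CG15353 has 2 member probe sets, with consecutive identifiers: the first read 12.98, 13.76 and 14.56 in DN1 to DN3 and 12.20, 12.76 and 13.92 in ACT1 to ACT3. The second read 12.49, 13.31 and 14.31 in DN1 to DN3 and 11.91, 12.34 and 13.17 in ACT1 to ACT3, in the same order of arrays but for DN2 and ACT3. No role is given for CG15353 here.

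The second arrays took no part in the choice, and DN2 and ACT2 parted from each other. With each member's own mean over 6 arrays taken off, the medians of the dominant negative arrays were -0.55 (DN1), 0.30 (DN2) and 0.63 (DN3). Those of the activated arrays were -0.53 (ACT1), -0.48 (ACT2) and 0.63 (ACT3). DN2 lay above the midpoint of DN1 and DN3 for 118 of 150 members, against 42.3% of the eligible probe sets, with a median of 0.25 (eligible: -0.043). ACT2 lay below the midpoint of ACT1 and ACT3 for 142 members, against 47.2%, with a median of -0.53 (eligible: 0.019). DN2 thus read nearer to DN3, and ACT2 nearer to ACT1. With 1 second array a group, these are values of arrays and carry no test of the transgenes. ACT2 also stood apart on spike controls, given below.

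ACT2 was at or below ACT1 for 65 members (eligible: 51.6%) and at or above ACT3 for 0. DN2 was at or above DN3 for 15 members (eligible: 44.8%) and at or below DN1 for 2. Both second arrays lay strictly between the first and the third for 77 members. The gap that the rule set between the first and the third arrays makes positions between them likelier for members than for eligible probe sets (5.64%), so nothing is read from that contrast, nor from the shares at or beyond the first or the third. ACT2 lay below DN2 for 140 members, against 42.8% of the eligible probe sets, with a median difference of -0.77 (eligible: 0.064). The lowest of DN2, DN3 and ACT3 exceeded the highest of DN1, ACT1 and ACT2 for 139 members, against 13.7%. Without the second arrays that order held for all 150 members (eligible: 25.3%), so nothing is read from the contrast with 13.7%. The rule fixed 4 of these 6 positions in part, since it set DN3 above DN1 and ACT3 above ACT1.

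**Figure D2:**
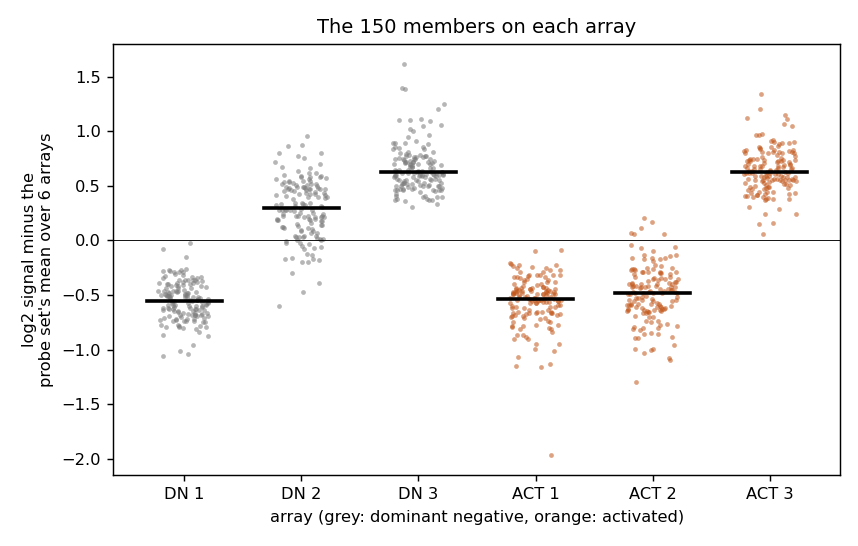
Each point is 1 of the 150 members on 1 array (x axis), as log2 signal minus that probe set's mean over 6 arrays (y axis), and black bars are medians. DN2 lies nearer to DN3 (medians 0.30 and 0.63) and ACT2 near ACT1 (-0.48 and -0.53).

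The 11 exceptions to that order were mirr, Obp99b, msps, pdm2, Cds, Dp1, obe, snu, sesB, CNBP and ken, named after their values were seen. DN2 lay farthest below the midpoint for CNBP, a zinc finger nucleic acid-binding protein gene, which read 12.20, 11.91 and 13.10 in DN1 to DN3 and 12.28, 12.38 and 13.20 in ACT1 to ACT3. The odorant-binding protein gene Obp99b was next and read 10.48, 10.39 and 11.65 in DN1 to DN3 and 9.40, 10.46 and 10.95 in ACT1 to ACT3, with both second arrays apart from the main pattern. After them came mirr and CG34166, at -0.50 and -0.45. DN2 lay farthest above for Dr, a homeodomain gene, with 8.15, 9.89 and 9.61 in DN1 to DN3 and 8.37, 8.08 and 9.52 in ACT1 to ACT3. Next were the junction gene p120ctn at 0.90, the Notch pathway repressor gene H at 0.88 and the junction scaffold gene pyd at 0.86.

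ACT2 lay farthest below the midpoint of its group for stai, which encodes the microtubule regulator stathmin and read 9.13, 9.74 and 10.45 in DN1 to DN3 and 8.96, 8.10 and 10.05 in ACT1 to ACT3. It was followed by trn (-1.33), Desat1 (-1.27) and ckn (-1.23). ACT2 lay farthest above it for CG34166 (0.33), Obp99b (0.28), the actin-associated gene bif (0.21) and CG34227 (0.15). The spread of ACT2 around its midpoint, from -1.40 to 0.33, was thus mostly on 1 side.

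**Figure D3:**
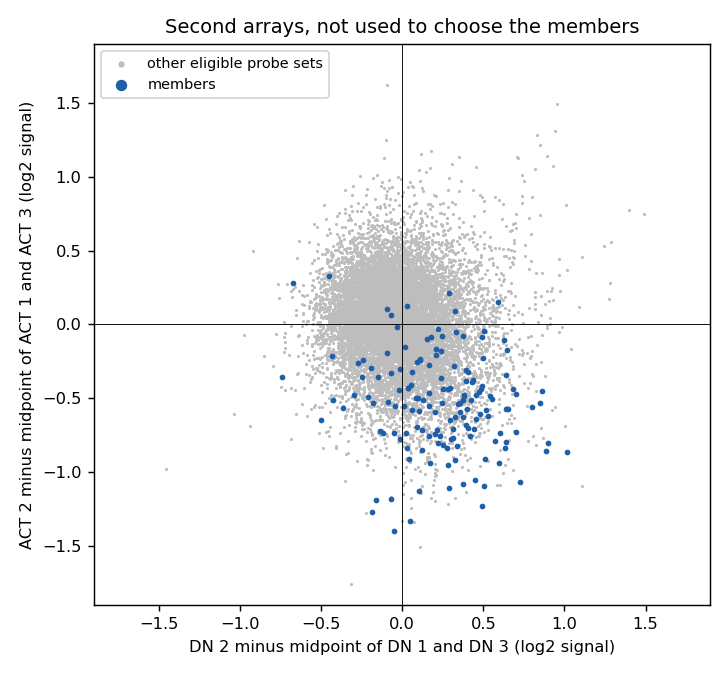
DN2 minus the midpoint of DN1 and DN3 (x axis, log2 signal) against ACT2 minus the midpoint of ACT1 and ACT3 (y axis, log2 signal), with 150 members in blue and the other eligible probe sets in grey. Of the members, 114 lie at lower right, with DN2 above and ACT2 below, as do 22.6% of the eligible probe sets.

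The set is described by probe set rather than by transcript, since other probe sets of the same genes, non-members by definition, often read otherwise. For 33 member genes the arrays held 46 further probe sets that were not members. Both differences were above 0 for 12 of them, below 0 for 21 and of mixed sign for 13, with medians of -0.19 for DN3 minus DN1 and -0.065 for ACT3 minus ACT1. The 12 are 26.1% of the 46, beside 30.8% over all 12443 probe sets with 1 symbol, and none reached the lowest member score. These probe sets are by construction the lower ones of their genes, since higher ones would be members, and only CG15353 had 2 members. The values are a description.

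Egfr was one of these genes. Its member read 8.66, 10.03 and 10.11 in DN1 to DN3 and 8.50, 8.78 and 9.75 in ACT1 to ACT3. The other probe set read 8.50, 9.33 and 9.09 in DN1 to DN3 and 10.40, 10.26 and 10.82 in ACT1 to ACT3, with DN3 minus DN1 and ACT3 minus ACT1 at 0.59 and 0.42 against 1.45 and 1.25 for the member. On the member DN2 and DN3 lay above all 3 activated arrays, while on the other all activated arrays lay above all dominant negative ones. Which of them, if either, also reads transgene RNA was not determined here.

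At least 1 other probe set with both differences below 0 was seen for B4, smash, stai, CNBP, pyd, eIF5B, jbug, CG33298, CG31224, pdm2, tmod, RAF2, Tango10, Ten-m and jim. The zinc finger gene jim had the widest gap: its member read 9.46, 10.55 and 10.84 in DN1 to DN3 and 9.47, 9.58 and 10.47 in ACT1 to ACT3. Its other probe set read 9.76, 9.57 and 8.70 in DN1 to DN3 and 10.12, 9.63 and 8.67 in ACT1 to ACT3. The first was higher on the third arrays of both groups and the second was lower on both. For Ten-m, a teneurin cell surface protein, the differences were 1.13 and 0.97 for the member and -0.50 and -0.93 for the other probe set. For CNBP they were 0.90 and 0.91 for the member, -0.91 and -0.70 for a second probe set and -0.25 and -0.15 for another. The junction gene pyd had 5 probe sets besides its member, of which 1 was above 0 in both groups, 3 below 0 in both and 1 mixed.

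Among the other probe sets of highest score were those of ox, a subunit of respiratory complex III, at 0.75 and 0.61 against 1.35 and 1.30 for the member, and eIF5B at 0.54 and 0.60 against 1.03 and 0.94. In both genes these 2 probe sets have consecutive identifiers. The next identifier also belongs to eIF5B, and that probe set had differences of -0.28 and -0.16. The junction protein gene smash had 4 further probe sets, with 2 above 0 and 2 below 0 in both groups.

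**Figure D4:**
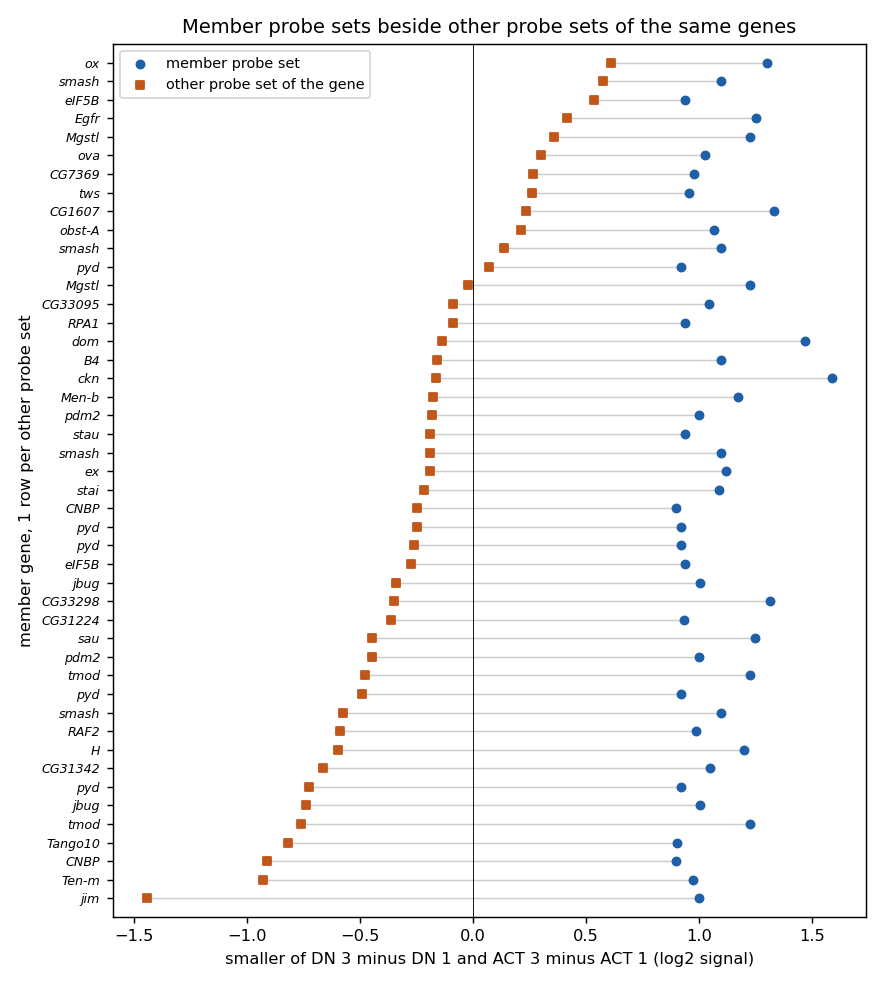
For each of 46 non-member probe sets of 33 member genes (rows), the score of the gene's member (blue circle) and of the other probe set (orange square), on the x axis as the smaller of DN3 minus DN1 and ACT3 minus ACT1 in log2 signal. All orange squares lie left of their circles, and 12 lie above 0.

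Members also shared their place in the array's numbering, which the rule did not use. Identifiers on this array are numbered, and they were split after seeing the data into 3 blocks by their leading digits. The highest-numbered block made up 98 of 150 members (65.3%) and 29.4% of the eligible probe sets. The middle block made up 14 members (9.33%) and 51.5% of the eligible ones, and the lowest-numbered block made up 38 (25.3%) and 19.1%. All eligible probe sets of the highest-numbered block had medians of 0.079 and 0.075 for the 2 differences, against -0.11 and -0.14 in the middle block. Of the 46 other probe sets of member genes, 11 lay in the highest-numbered block. How they differed from the members therefore cannot be told apart from the blocks. The sources used here do not say what the numbering stands for. In genome order, counted over protein-coding genes of a RefSeq gene table, 5 member genes were direct neighbours of another: Hem, IleRS and Ten-m in a row, and Patr-1 beside Dad. No share over all genes was worked out, so nothing is read from that count.

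Some control probe sets also differed between the first and the third arrays. The 3 probe sets named for 18S rRNA, a part of the ribosome and not a messenger RNA, averaged 11.40, 8.53 and 6.22 in DN1 to DN3 and 10.005, 6.36 and 6.18 in ACT1 to ACT3. They were high on both first arrays, where the members were low, and lowest within each group on the third. On ACT2 both the rRNA signal and the members were low, and on DN2 the rRNA signal lay between. The 3′ minus 5′ difference of the GAPDH controls, which compares probe sets named for the ends of 1 transcript, was 1.03, 1.17 and 2.00 in DN1 to DN3 and 1.00, 1.25 and 1.56 in ACT1 to ACT3. It was highest on the third array of each group. For actin it was 0.53, 0.36 and 1.68, and 0.85, 0.87 and 0.96, also highest on the third arrays. For eIF-4a it was 0.92, 0.76 and 1.39, and 1.05, 1.45 and 1.06, highest on DN3 and ACT2. The 9 spike control probe sets (bioB, bioC, bioD and cre) averaged 11.47, 10.82 and 10.98 in DN1 to DN3. In ACT1 to ACT3 they averaged 11.03, 12.07 and 11.19, so ACT2 was highest and DN2 lowest. The 3′ controls of actin, GAPDH and eIF-4a were lowest on ACT2 (12.08, 12.19 and 13.65). The SD over all probe sets was also lowest on ACT2 (1.53). The part of rRNA carry-over and of RNA or label quality in the members' differences, including that of ACT2 from DN2, was not tested.

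**Figure D5:**
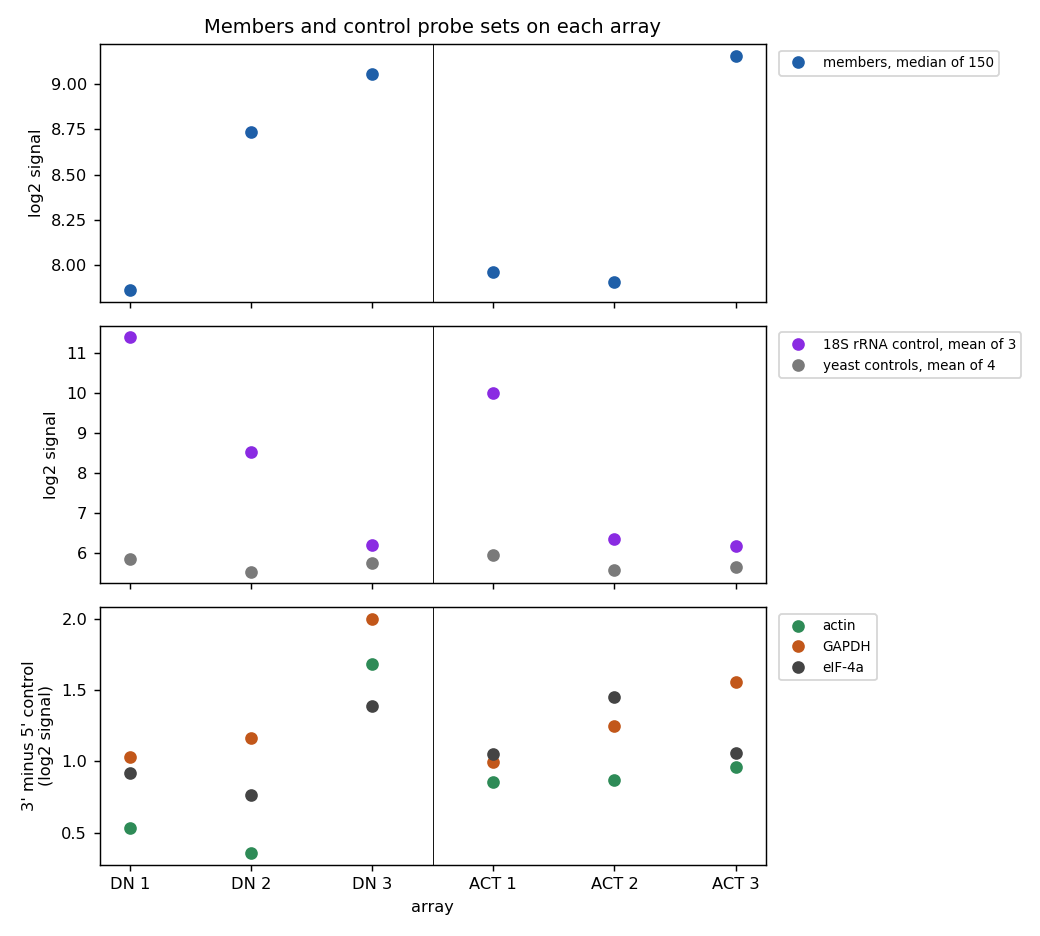
Log2 signal on each of 6 arrays (x axis) of the median member (top) and of the 18S rRNA and yeast controls (middle), and the 3′ minus 5′ difference of 3 control transcripts (bottom). DN1 and ACT1 combine the highest 18S rRNA signals (11.40 and 10.005) with low member medians (7.86 and 7.96), and ACT2 has a low 18S rRNA signal (6.36) with a low member median (7.91).

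By function, 107 member genes were placed in 11 classes by hand, from their symbols and textbook roles, after the members were known; 42 genes were not placed, and their 43 probe sets had medians of 0.21 for DN2 and -0.53 for ACT2 against the midpoints. The class sizes are descriptions. Genes of developmental signalling numbered 15. Some are genes of the Dpp pathway, among them receptors, a transducer and an inhibitor. How other genes of that pathway read was not counted. Its ligand gene dpp was not a member, with -0.027 for DN3 minus DN1 and 0.32 for ACT3 minus ACT1. The type I receptor gene sax read 7.32, 8.61 and 8.75 in DN1 to DN3 and 7.31, 7.26 and 8.79 in ACT1 to ACT3. Its type II partner put read 7.54, 8.75 and 8.94 in DN1 to DN3 and 7.97, 7.81 and 9.46 in ACT1 to ACT3. Mad, the transcription factor that the receptors phosphorylate, read 7.005, 8.34 and 8.30 in DN1 to DN3 and 6.57, 6.95 and 8.20 in ACT1 to ACT3. In these 3 genes DN2 stood near DN3 and ACT2 nearer to ACT1 than to ACT3. Dad, which inhibits the same pathway, had differences of 1.65 and 0.94, in the order DN3 minus DN1 and ACT3 minus ACT1 that holds for all pairs of differences given here. The Tolloid-like protease gene tok had 0.99 and 0.90.

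Further signalling genes came from the Hippo growth pathway, with the kinase gene hpo at 1.28 and 1.42, its upstream regulator ex at 1.12 and 1.58 and the atypical cadherin gene ds at 1.17 and 1.40. Notch pathway members were the target gene E(spl)mdelta-HLH, the repressor H, the regulator dx and the membrane channel gene bib. E(spl)mdelta-HLH read 7.25, 8.30 and 8.72 in DN1 to DN3 and 6.92, 7.71 and 8.33 in ACT1 to ACT3, with ACT2 near the middle of its group. The Hedgehog ligand gene hh read 7.37, 7.99 and 8.42 in DN1 to DN3 and 7.23, 7.29 and 8.34 in ACT1 to ACT3, and the Toll receptor gene Tl had differences of 0.96 and 0.99. Against the midpoints, the median of the 15 was 0.38 for DN2 and -0.50 for ACT2.

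Transcription factors of patterning and hormones numbered 10: mirr, bowl, Kr-h1, Dr, Hnf4, psq, jim, pdm2, crp and ken. The odd-skipped family gene bowl read 8.17, 9.13 and 9.60 in DN1 to DN3 and 7.56, 8.29 and 9.38 in ACT1 to ACT3, with DN2 above the midpoint of its group and ACT2 below it. Hnf4, a nuclear receptor of lipid metabolism, read 7.03, 8.06 and 8.28 in DN1 to DN3 and 7.15, 6.95 and 8.16 in ACT1 to ACT3, with ACT2 below ACT1. The POU domain gene pdm2 read 7.23, 8.06 and 8.57 in DN1 to DN3 and 7.96, 8.36 and 8.96 in ACT1 to ACT3 at its member probe set, where ACT2 exceeded DN2. Both other probe sets of pdm2 had a DN3 minus DN1 below 0. Chromatin and general transcription added 7 genes, led by dom, Ada3, Dek, ova and Scm, a Polycomb group gene with 1.04 and 0.92.

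Genes of polarity, junctions, adhesion and the cell surface numbered 11, and their second arrays parted the most among the classes, with medians of 0.64 for DN2 and -0.73 for ACT2 against the midpoints. The planar polarity gene Vang read 8.15, 8.99 and 9.48 in DN1 to DN3 and 8.24, 8.15 and 9.57 in ACT1 to ACT3. The apical polarity genes baz and par-6 had differences of 1.38 and 1.30 and of 1.20 and 1.11. Gli and Cont, genes of septate junctions, had 1.07 and 1.11 and 0.94 and 1.02. In Gli, DN2 (10.95) exceeded DN3 (10.78) while ACT2 (9.87) stayed near ACT1 (9.78). Cytoskeletal genes numbered 9, among them the WAVE complex gene Hem (1.31 and 1.30), the formin gene dia (1.34 and 1.29), the kelch protein gene kel (1.37 and 1.28), tmod (1.24 and 1.23) and stai (1.32 and 1.09).

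RNA binding, processing, translation and nuclear transport formed the class of most members, 20. It held ssx, the messenger RNA decay gene Patr-1, the isoleucyl-tRNA synthetase gene IleRS, the importin gene Kap-alpha1 and hrg, which encodes a poly(A) polymerase. IleRS read 8.67, 9.21 and 9.77 in DN1 to DN3 and 8.85, 8.62 and 9.94 in ACT1 to ACT3. Patr-1 read 5.95, 6.81 and 7.05 in DN1 to DN3 and 6.00, 5.95 and 7.44 in ACT1 to ACT3, with 4 arrays under 7. The exportin gene Cse1 (1.39 and 1.05) and the nucleoporin genes Nup154 (1.02 and 1.10) and mbo (1.02 and 1.00) belong to nuclear transport. The median of the 20 against the midpoints was 0.17 for DN2 and -0.56 for ACT2.

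Mitochondrial and metabolic genes numbered 11. Mpcp2, the phosphate carrier of mitochondria, read 10.54, 11.54 and 11.85 in DN1 to DN3 and 10.70, 10.84 and 12.06 in ACT1 to ACT3. The adenine nucleotide carrier gene sesB read 11.62, 11.90 and 12.72 in DN1 to DN3 and 11.95, 12.15 and 12.87 in ACT1 to ACT3, an exception in which ACT2 exceeded DN2. Ogdh, an enzyme of the citric acid cycle, had differences of 1.24 and 1.48, the malic enzyme gene Men-b 1.44 and 1.17 and the aspartate aminotransferase gene Got1 0.98 and 1.05. Genes of lipids and membranes numbered 10. After Desat1 came sau, a Golgi phosphoinositide-binding protein gene (1.25 and 1.498), the acyl-CoA synthetase gene pdgy (1.30 and 1.24), the sphingolipid desaturase gene ifc (1.25 and 1.16) and nes (1.12 and 1.18). Oatp74D, the importer that carries ecdysone into cells and a gene chosen after its values were seen, read 8.94, 10.34 and 10.03 in DN1 to DN3 and 9.08, 9.14 and 10.27 in ACT1 to ACT3. DN2 was its highest array, and ACT2 stood with ACT1.

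The smaller classes were cell cycle, DNA and phosphatases with 6 genes, protein turnover with 4 and secreted proteins with 4. CycE, the cyclin of S phase entry, read 7.01, 7.93 and 7.94 in DN1 to DN3 and 7.24, 6.63 and 8.13 in ACT1 to ACT3. Pp1-87B, Tdg, Cks30A and tws are of the same class, and Cks30A had differences of 1.03 and 1.33. REG, a proteasome activator gene, had 1.42 and 1.30, the p97 ATPase gene TER94 1.12 and 1.16 and Herp, of endoplasmic reticulum protein degradation, 1.006 and 0.98. The odorant-binding protein gene Obp56d read 7.61, 8.91 and 8.997 in DN1 to DN3 and 7.62, 7.70 and 9.24 in ACT1 to ACT3. The chitin-binding protein gene obst-A had 1.15 and 1.07 at its member and 0.27 and 0.21 at its other probe set, and the secreted protein gene Phk-3 had 0.92 and 1.11.

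Genes known to mark the larval stage were looked up in lists. Of 16 measured transcription factors of the ecdysone cascade 1 was a member, beside 1.23% of the eligible probe sets, so the count reads nothing about the list. It was Kr-h1, a zinc finger gene of juvenile hormone and ecdysone responses. It read 5.69, 6.39 and 7.23 in DN1 to DN3 and 5.30, 5.68 and 6.72 in ACT1 to ACT3, and both its first arrays read under 6. Of the 16, counted by the probe set of highest mean, 5 were higher on the third arrays of both groups and 8 lower on both, beside 32.2% and 42.8% of 10844 genes. The nuclear receptor gene Hr4 read 10.33, 9.17 and 7.39 in DN1 to DN3 and 10.78, 9.49 and 8.34 in ACT1 to ACT3. Here both second arrays lay between the first and the third. Blimp-1, a repressor of the cascade, read 10.78, 10.36 and 9.29 in DN1 to DN3 and 11.23, 10.71 and 9.52 in ACT1 to ACT3, also lower on the third arrays, and EcR itself differed by -0.56 and -0.51.

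Of 14 measured ecdysone-inducible effector genes 0 were members, with 5 higher and 5 lower on the third arrays of both groups. ImpE1 read 10.44, 9.99 and 8.19 in DN1 to DN3 and 11.42, 10.76 and 9.10 in ACT1 to ACT3, which again put both second arrays between. The largest difference upward was that of Eip63E, at 0.88 and 0.56. Stage genes of the lists thus read both higher and lower on the third arrays, and the ages of the samples within the instar cannot be read from the labels. The part of larval stage in the members' differences was not tested.

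Of the 211 probe sets barred from the set by name 4 would have entered it, all of glue and storage genes. Among the eligible probe sets 1.23% reached the lowest member score. Sgs7 read 10.79, 12.93 and 13.18 in DN1 to DN3 and 10.30, 10.87 and 12.79 in ACT1 to ACT3. The storage protein gene Lsp2 read 10.74, 11.05 and 12.35 in DN1 to DN3 and 9.90, 10.88 and 12.02 in ACT1 to ACT3. For Sgs7 DN2 lay nearer to DN3 and ACT2 nearer to ACT1, as for most members, while for Lsp2 DN2 lay nearer to DN1. Sgs3, at 2.09 and 1.49, and Sgs5, at 1.87 and 0.92, were the others. Over the marker lists 7 of 9 salivary gland genes were higher on the third arrays of both groups and 2 lower, with medians of 0.78 and 0.54, and their mean log2 level per array ran from 8.51 to 9.41 in dominant negative and from 8.26 to 9.004 in activated samples. All 5 measured fat body genes were higher on both, with medians of 0.43 and 0.66 and mean levels from 9.33 to 10.08 and from 8.62 to 9.49. Over all 10844 genes 32.2% were higher on the third arrays of both groups and 42.8% lower. No gene of either list averaged under 6. In bulk samples, more cells of a type and more RNA per cell cannot be told apart, and the part of these organs in the members' differences was not tested.

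Tracheal genes were higher on the third arrays of both groups for 4 of 6 and lower on both for 0, with medians of 0.48 and 0.36 and mean levels from 9.79 to 10.39. The 4 were Gasp, verm, serp and pio, which also stand in the chitin and cuticle assembly list below. The others, btl (-0.021 and 0.20) and uif (-0.17 and 0.18), were of mixed sign. The other 7 marker lists, of blood cells, muscle precursors, neurons, glia, gut and other discs, had 0 members, and their medians lay between -0.26 and 0.19 for DN3 minus DN1 and between -0.50 and 0.06 for ACT3 minus ACT1. Markers of neurons were lower on the third arrays of both groups for 5 of 6 genes. Among the pathway lists, metabolism held Got1, the cell cycle CycE, junctions baz and chitin and cuticle assembly obst-A as their only members. The lists leave out other members named above. Examples are Gli and Cont for junctions, Ogdh and Men-b for metabolism and Cks30A for the cell cycle. In the chitin and cuticle assembly list 17 of 38 genes were higher and 17 lower on the third arrays of both groups. Beside 32.2% of all genes higher and 42.8% lower on the third arrays of both groups, 12 of 18 metabolism genes were higher and 3 lower. Of 16 cell cycle genes 10 were higher and 3 lower, of 10 secretory pathway genes 7 were higher and 1 lower, and of 10 wing pouch genes 4 were higher and 3 lower. The remaining lists (vein and Egfr targets, Osiris genes, cytochrome P450 and glutathione transferase genes, immune peptides, chitinase-like growth factors and juvenile hormone genes) held 0 members and had medians between -0.10 and 0.18 and between -0.29 and 0.15.

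The comparison of activated with dominant negative discs was the 1 test the design allowed on the members, since it is a contrast the rule did not use. limma (two-sided, adjusted over 13966 probe sets) called 0 members and 0.0% of all probe sets at an adjusted p under 0.05. At an unadjusted p under 0.05 there were 2 members, beside 2.21% of all probe sets (308). With array weights limma called 1 probe set, no member. The smallest limma adjusted p of a member was 0.9999. The arrays of the groups did not overlap for 0 members, beside 6.23% of all probe sets. That 0 was settled on the 4 arrays that the rule used, so nothing is read from it. There the lowest of DN3 and ACT3 exceeded the highest of DN1 and ACT1 for all 150 members (eligible: 25.3%). For limma the rule works toward low counts, since it chose probe sets with a wide spread inside each group. The median SD of the members was 0.64 in DN and 0.69 in ACT (n = 3 each), against 0.17 and 0.19 over the eligible probe sets.

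In direction, 127 members had a lower mean in activated discs and 23 a higher one, where 45.4% of all probe sets were lower. The median log2 difference was -0.28, against 0.016 over all probe sets. It hung on single arrays: without DN3 it was -0.028, without ACT1 -0.066 and without ACT2 -0.095, and without ACT3 -0.66, without DN1 -0.63 and without DN2 -0.19. With array weights it was -0.61. Its sign was the same in all of these settings and its size was not. The groups differed most on the second arrays, with a median ACT2 minus DN2 of -0.77. With each member's own mean taken off, medians were near equal on the first arrays (-0.55 in DN1, -0.53 in ACT1) and on the third (0.63 in each).

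The 4 members of smallest p that were lower in activated discs were Phk-3, CG5731, CG15353 and CG34227. Phk-3 read 11.76, 12.33 and 12.68 in DN1 to DN3 and 10.84, 11.16 and 11.95 in ACT1 to ACT3, a log2 difference of -0.95 (SE 0.31) with a limma unadjusted p of 0.0134. ACT3 exceeded DN1, so the groups overlapped by that pair. CG5731 read 7.96, 8.51 and 9.13 in DN1 to DN3 and 7.22, 7.67 and 8.17 in ACT1 to ACT3, with a difference of -0.84 (SE 0.31) and a limma unadjusted p of 0.0251. For the lower-scoring probe set of CG15353 it was -0.90 (SE 0.45) and for CG34227 -0.82 (SE 0.41). The limma adjusted p was 0.9999 for each of the 4. On the other side stood pdm2 at 0.48 (SE 0.35), ken at 0.27 (SE 0.32), sesB at 0.24 (SE 0.31) and CNBP at 0.22 (SE 0.33), also with a limma adjusted p of 0.9999 each. Single arrays moved these values by over 1.5 times for all but Phk-3. CG5731 was -0.54 without DN3, CG15353 was -0.43 without DN3, and CG34227 was -0.49 without ACT1 and -1.29 without DN1. The value of pdm2 was 0.12 without DN1, 0.21 without ACT3 and 0.78 without DN3. Those of ken, sesB and CNBP ran from -0.024 to 0.59, from -0.035 to 0.56 and from -0.072 to 0.56 with 1 array left out.

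By class, the median difference between groups was below 0 for all 11 classes, from -0.49 for the 4 secreted proteins to -0.031 for the 6 genes of cell cycle, DNA and phosphatases. The classes share the same 6 arrays, so their common sign is no separate result. The 10 lipid and membrane genes differed from -0.56 to 0.036, with a median of -0.42. The 20 genes of RNA and nuclear transport differed from -0.42 to 0.22, with a median of -0.082. Within signalling, Egfr had -0.59 (SE 0.42) at its member and the Notch repressor gene H -0.33 (SE 0.51). Neither passed the test.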

How the data were processed

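RNA of 6 wing disc samples was measured on Affymetrix arrays. The authors deposited log2 probe set signals made with GCRMA, per the submitters' processing notes. GCRMA's version, its settings and the genome build are not known here. That values are log2 follows from their range (4.72 to 15.08). All 6 columns had a sample. Gene symbols came from the platform's annotation, and 12394 of 12443 single-symbol probe sets were in a RefSeq gene table (Release 6 plus ISO1 MT), with 0 symbols changed. Differences between arrays and midpoints were computed in Python 3.11.15. Activated and dominant negative samples were compared by limma without a filter (version 3.58.1, R 4.3.3). The fit was lmFit, then eBayes, with no covariate and Benjamini-Hochberg adjustment over 13966 probe sets at 0.05. The step was run on simulated data with independent noise of the same SD for all probe sets. That setting lacks the members' wide spread and shifts shared by arrays, so it checks the code alone. An exact permutation test of 3 against 3 cannot go below 0.1. Since separate animals are not stated, p-values cover the spread of these 6 samples alone, and it may be technical.

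The members, 24 gene lists and rules for naming genes were chosen with earlier results of these data known. Named were the 15 highest scores, 3 probe sets on each side of the limit, up to 5 per functional class, members of the lists, the 4 farthest second arrays on each side, the 4 smallest p per direction, and genes with probe sets of opposite sign; further class members were named for their role after their values were seen. Alternatives were a replicate block, quantile normalization, median centring, a filter at a mean of 6, a trend with robust prior, array weights and leaving out each array. No sequence is shown. Spot-level flags were not used here, and the number of arrays limits the precision. Figures were drawn with matplotlib 3.10.9.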

Additional observations from a re-analysis of the deposited data

How the results depend on the processing

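The count of probe sets called between groups was 0 under each alternative except array weights, where it was 1 and no member; leaving out 1 array gave 0 to 0. At an unadjusted p under 0.05 the range was 193 to 1109 probe sets and 0 to 60 members, the latter without ACT3. The members' median difference kept its sign and ran from -0.66 to -0.028 with 1 array left out. Same-numbered arrays matched in part, and the labels state no pairing. Their deviations from the group mean correlated across probe sets at 0.61 for the first, -0.08 for the second and 0.60 for the third arrays. DN2 correlated best with ACT3 (0.15). Of all pairs of arrays, DN1 with ACT1 (0.9911) and DN3 with ACT3 (0.9906) had the highest Pearson correlations of signal. With the replicate block 0 probe sets were called and the median stayed at -0.28. There 40 of 150 members instead of 2 had a limma unadjusted p under 0.05, beside 774 of all 13966 probe sets. A replicate block takes out shifts shared by same-numbered arrays, and the rule chose members by such shifts. Nothing is therefore read from the rise to 40. Among the 8 genes named by p, ken turned to -0.057 with array weights and -0.024 without DN1 (up to 0.59 without DN3), sesB to -0.013 with array weights and -0.035 without ACT3 (up to 0.56 without DN3), and CNBP to -0.032 without DN2 and -0.072 without ACT3 (up to 0.56 without DN3); the cause was not tested. Of the 150 members, 137 remained after quantile normalization, 149 after median centring, 149 with the filter, 146 with no name left out and 118 when probe sets were averaged by gene. The second arrays' medians moved by little: 0.25 to 0.28 for DN2 and -0.56 to -0.50 for ACT2 against the midpoints, and -0.82 to -0.77 for ACT2 minus DN2. Chosen after seeing the data, the count of members in the highest-numbered identifier block was 96 to 103, and that of other probe sets with both differences above 0 was 10 to 13. Signal over background limits ATP8A, the 1 member with a mean under 6, and 5 members whose first arrays both read under 6.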
